A study of Rattus norvegicus with 18 samples.

Results

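The netrin receptors and ligands described here are 8 rat genes: the ligands Ntn1 and Ntng1, the receptors Dcc and Neo1, and the repulsive receptors Unc5a, Unc5b, Unc5c and Unc5d. Their probes were found by gene name, or an older synonym of the same transcript, and number 12 among the 41012 probes of the array, on which 16236 genes could be named. The family was chosen by the WHP over WLP ratio of 1 Unc5d probe, which differed between the strains, so the strain ratios below are given as a description. The levels by brain area played no part in that choice. WHP rats were bred for high ethanol preference and WLP rats for low preference. All rats were males that had never received alcohol. The brain areas were the nucleus accumbens (a reward area of the ventral striatum), the prefrontal medial cortex and the hippocampus. The strains were compared on 18 arrays, each carrying a WHP pool in 1 dye and a WLP pool in the other. Every pool joined equal RNA of 3 rats, and each of the 9 pool pairs, 3 per area, was measured on 2 arrays with the dyes swapped. Animals within a pool cannot be told apart, so n counts pool pairs. As these are pieces of whole tissue, fewer cells of a type and less RNA per cell cannot be told apart.

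Netrins are secreted or membrane-bound cues that guide growing axons. DCC and neogenin mostly mediate attraction to netrin-1, whereas UNC5 receptors, alone or together with DCC, mediate repulsion. DCC and the UNC5 proteins are also called dependence receptors, since they can signal cell death when no ligand is bound. Netrin-G1 is a relative of the secreted netrins that is tethered to the membrane by a lipid anchor and binds NGL-1 rather than DCC or UNC5. Several of these genes stay active in the adult brain, and in mice DCC shapes the dopamine innervation of the prefrontal cortex.

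The sequences of the Unc5d and Ntng1 probes are given here because the results turn on how the probes of each gene compare. Unc5d probe 1 lies at chr16:67423044-67423103 and probe 2 at chr16:67688637-67688696, both on the plus strand of the rn4 build, and probe 2 starts 265593 bases further along that strand. Ntng1 probe 1 lies at chr2:205594963-205595022 and probe 2 at chr2:205439645-205439704, both on the minus strand, 155318 bases apart. Probes of a gene are numbered along the strand of their coordinates, taken as the direction of transcription. For Unc5d no other source used here gave that direction. Whether they fall in exons, introns or untranslated ends was not analysed here. Capitals mark the 58 bases of Ntng1 probe 2 that another probe on the array carries on the opposite strand.
Unc5d probe 1: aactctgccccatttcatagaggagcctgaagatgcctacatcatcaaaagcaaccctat
Unc5d probe 2: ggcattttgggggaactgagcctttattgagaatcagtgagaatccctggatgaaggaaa
Ntng1 probe 1: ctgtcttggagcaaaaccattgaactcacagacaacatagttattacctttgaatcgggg
Ntng1 probe 2: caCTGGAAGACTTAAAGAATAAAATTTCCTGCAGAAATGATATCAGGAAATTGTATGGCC

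Strain values are given as log2(WHP/WLP) and are negative where the WHP pool was dimmer. Levels are log2 signals relative to the median probe of the array, averaged over both strains unless a strain is named, and are compared only within a probe. Median spot brightness was 78.2 to 209 in green and 133 to 303 in red, and 28670 to 38080 green and 31207 to 38173 red spots were well above background. The hippocampus arrays were scanned in a second session with brighter green medians, 155 to 209 against 78.2 to 100 in the first, so a hippocampal level difference and the session cannot be told apart. The 2 dye-swapped arrays of accumbens pair 3 and of hippocampus pair 2 hardly correlated over all probes (r = 0.03 and -0.02), whereas the other 7 pairs gave 0.28 to 0.64. Striatum markers, 10 of 10 genes measured, averaged 3.60 ± 0.45 in the accumbens, 3.44 ± 0.29 in the prefrontal medial cortex and 1.85 ± 0.17 in the hippocampus (log2 level, SD, n = 3 each). The prefrontal arrays thus carried striatal marker signal near that of the accumbens, beside cortex markers at 2.79 ± 0.14, against 1.28 ± 0.18 in the accumbens and 2.40 ± 0.04 in the hippocampus.

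Unc5d, a repulsive netrin receptor that also binds the FLRT family of adhesion proteins, gave different values at its probes. At probe 2 the strain ratio was -1.04, -1.14 and -1.01 in the 3 accumbens pool pairs. It was -0.75, -0.68 and -1.44 in the prefrontal pairs and -1.17, -0.77 and -1.07 in the hippocampal pairs. Signal was lower in the WHP pool in 9 of 9 pairs and on 18 of 18 arrays, with single arrays between -1.55 and -0.35. The mean over pairs was -1.01 ± 0.24 (SD, n = 9), which is 2.01-fold lower in WHP. The ratio was negative in both dye orientations, at -1.13 on average with WHP in red and -0.89 with WHP in green. Accumbens WHP pools stood at a level of 1.70 ± 0.07, against 2.77 ± 0.11 in WLP pools (SD, n = 3 each). Prefrontal levels were 1.04 ± 0.23 in WHP and 1.99 ± 0.19 in WLP, and hippocampal levels 1.21 ± 0.13 in WHP and 2.21 ± 0.20 in WLP. The strains did not overlap in any area at this probe. Without accumbens pair 3 and hippocampus pair 2 the area ratios were -1.09 in the accumbens and -1.12 in the hippocampus.

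At Unc5d probe 1 the ratios stayed near 0. They were 0.01, -0.02 and -0.19 in the accumbens, -0.07, -0.02 and -0.13 in the prefrontal medial cortex and -0.07, 0.12 and 0.03 in the hippocampus, with a mean of -0.04 ± 0.09 (SD, n = 9). Accumbens and hippocampus strains overlapped, while the 3 prefrontal WHP pools lay just under the 3 WLP pools, from -0.15 to -0.10 against -0.08 to -0.02 in WLP (log2 level). Probe 1 exceeded probe 2 in every pair, by 0.97 ± 0.22 on the log2 ratio scale and by 0.66 to 1.31 over the pairs. Both probes were well above background in both strains on every array. Another probe, with no gene name, starts 3421 bases beyond the end of probe 2 on the same strand and was detected in all 3 areas. Its ratio averaged -0.09 and ranged from -0.34 to 0.14 over the 9 pairs, near the values of Unc5d probe 1. It was picked after its position was looked up, and no annotation used here ties it to Unc5d. From 1000000 bases before to 1000000 bases after the Unc5d probes the array holds 4 probes, both Unc5d probes included. The remaining one, unnamed and before probe 1, was detected in 1 area and had a mean ratio of -0.02. The cause of the disagreement between the Unc5d probes was not tested.

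**Figure D1:**
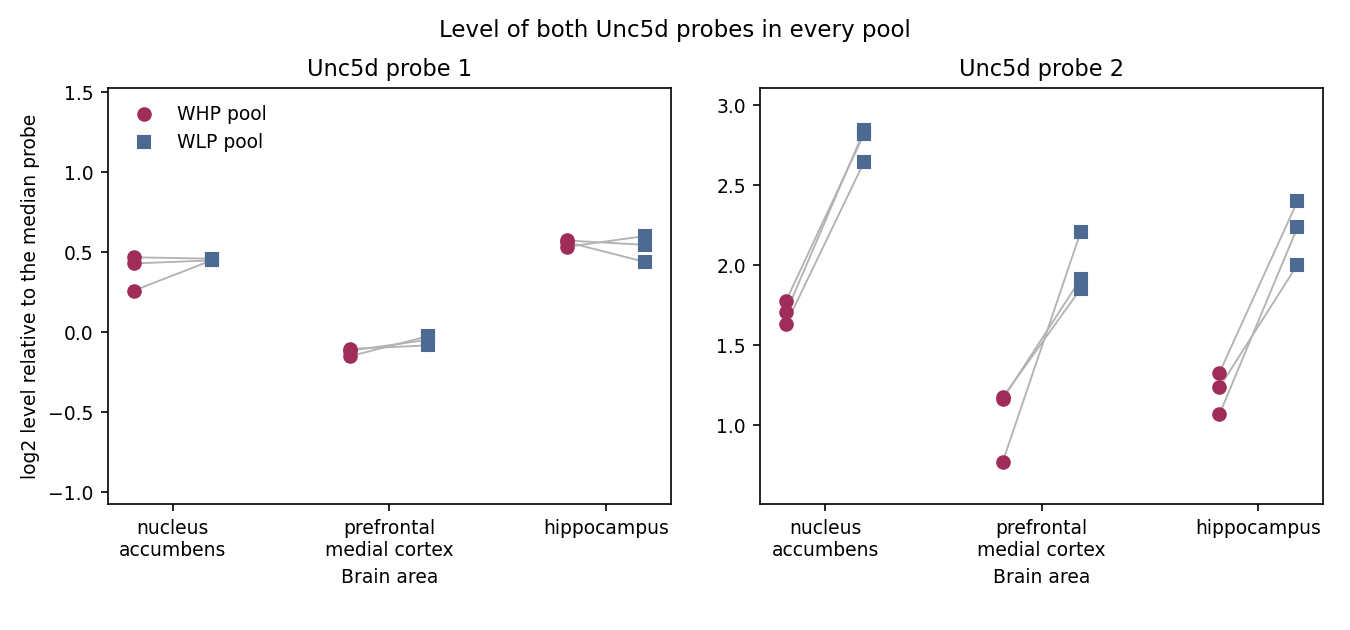
Level (vertical axis, log2 relative to the median probe, each panel spanning the same range) of Unc5d probe 1 and probe 2 in every WHP pool (circles) and WLP pool (squares) by brain area, with grey lines joining the pools of 1 pair. At probe 2 every WHP pool lies below every WLP pool of its area, by 1.01 on average over the 9 pairs, whereas at probe 1 the pairs differ by 0.04 on average.

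The remaining family members showed no comparable strain ratio. At an adjusted p under 0.05 in limma's moderated test over all detected probes, 1 of 11 tested member probes was called in the accumbens (0.252% of all probes), 0 of 10 in the prefrontal medial cortex (0.0905%), and in the hippocampus 1 of 11 (0.250%). Over the mean of the areas 1 of 10 was called (2.85%). Each called probe is Unc5d probe 2, which was the reason for choosing the family, so these shares carry no further weight. Counted at an unadjusted p under 0.05, the member probes numbered 3, 1 and 3 in the accumbens, prefrontal medial cortex and hippocampus, where 16.3%, 8.45% and 6.68% of all probes did so. Unc5d probe 2 is 1 of them in every area, so these counts are not free of the choice either. The others were Unc5b and Neo1 probe 1 in the accumbens and both Ntng1 probes in the hippocampus. Differences of the strain ratio between areas gave 0 called members in all 3 contrasts (0% of all probes), with 1 member at an unadjusted p under 0.05 for accumbens minus prefrontal medial cortex, 3 for accumbens minus hippocampus and 1 for prefrontal medial cortex minus hippocampus (3.33%, 8.63% and 3.6% of all probes).

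**Figure D2:**
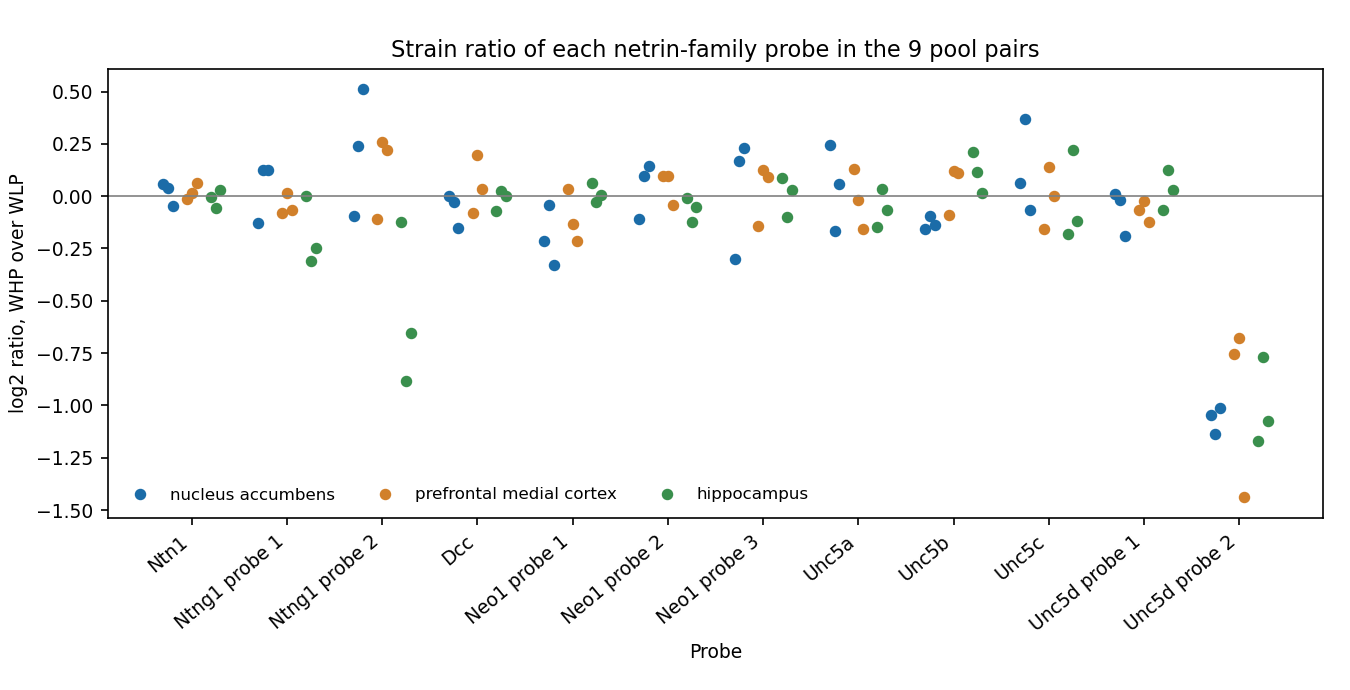
Log2 ratio of WHP over WLP (vertical axis) for each of the 12 probes of the 8 genes, with 1 point per pool pair, coloured by brain area. Unc5d probe 2 lies between -1.44 and -0.68 in all 9 pairs, and 2 hippocampal pairs of Ntng1 probe 2 lie at -0.88 and -0.65.

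Among the ligands, Ntn1, the secreted netrin-1, was too dim to compare. Its probe was well above background on 3 of 6 WHP and 2 of 6 WLP channels in the accumbens, on 1 and 0 in the prefrontal medial cortex and on 1 and 2 in the hippocampus, so it did not count as detected in any area. Its bases map to rn4 in separate pieces that together span 13154 bases of chromosome 10. Ntn1 ratios lay between -0.06 and 0.06 in all 9 pairs. The offset of 50 added to both channels pulls the ratios of such dim spots towards 0.

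Ntng1, which encodes netrin-G1, had the widest spread of strain ratios of the 12 probes at its probe 2, with an SD of 0.45 over the 9 pairs, against 0.24 for Unc5d probe 2. Ntng1 probe 2 stood at -0.12, -0.88 and -0.65 in the hippocampal pairs, at -0.10, 0.24 and 0.51 in the accumbens and at -0.11, 0.26 and 0.22 in the prefrontal medial cortex. The hippocampal WHP pools lay below all WLP pools there, at a level of 0.53 ± 0.07 against 1.09 ± 0.41 (SD, n = 3 each), although the nearest pools were 0.62 in both strains. Probe 1 had smaller ratios, 0.00, -0.31 and -0.25 in the hippocampus, -0.13, 0.12 and 0.12 in the accumbens and -0.08, 0.01 and -0.06 in the prefrontal medial cortex. The probes had the same sign in 8 of 9 pairs and their ratios correlated at r = 0.92 over the 9 pairs, which share arrays and so share any error of an array. For the Unc5d probes the same r was 0.41. Without hippocampus pair 2 the hippocampal ratio of probe 2 was -0.39.

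Netrin-G1 is known for its high expression in thalamic neurons and their axons, so thalamus and septum markers (Tcf7l2, Prkcd, Rora, Zic1 and Slc17a6, 5 of 5 measured) were set beside it. In the hippocampus 4 of the 5 had a negative ratio, Zic1 had 0.03, and 0 passed the limma test (adjusted p from 0.728), with Rora at an unadjusted p under 0.05. Their median ratio was 0.30, -1.16 and -0.96 in the hippocampal pairs, -0.17, -0.02 and 0.08 in the accumbens and -0.55, 0.41 and -0.12 in the prefrontal medial cortex. The 2 hippocampal pairs with the lowest Ntng1 ratios were those with the lowest marker ratios. In the hippocampus the mean marker level ranged from 1.44 to 1.55 in WHP pools and from 1.13 to 2.61 in WLP pools. Other marker lists also had hippocampal strain ratios mostly or wholly of 1 sign over their genes, with 0 members past the test. Striatum markers had medians of 0.00, -0.30 and -0.30 in the hippocampal pairs (1 of 9 tested genes positive on average). Neuron markers had -0.14, 0.01 and -0.18 (0 of 4 positive). The median was 2.09, 0.19 and 0.68 in the 3 hippocampal pairs for choroid plexus and ependyma markers (6 of 6 genes positive on average), 1.42, -0.08 and 0.65 for meninges and fibroblast markers (8 of 8) and 0.37, 0.57 and 0.12 for oligodendrocyte markers (8 of 8). In the prefrontal pairs the medians were -0.70, 0.35 and 0.43 for striatum markers and -0.79, 0.46 and 0.39 for oligodendrocyte markers. Cortex markers had 0.47, -0.55 and -0.04 there, and choroid plexus and ependyma markers -0.11, 2.30 and 0.01. The part of these marker lists in the Ntng1 ratio was not tested. The probe that carries 58 of the Ntng1 probe 2 bases on the opposite strand was detected in 0 areas, and its ratios ran from -0.08 to 0.04.

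**Figure D3:**
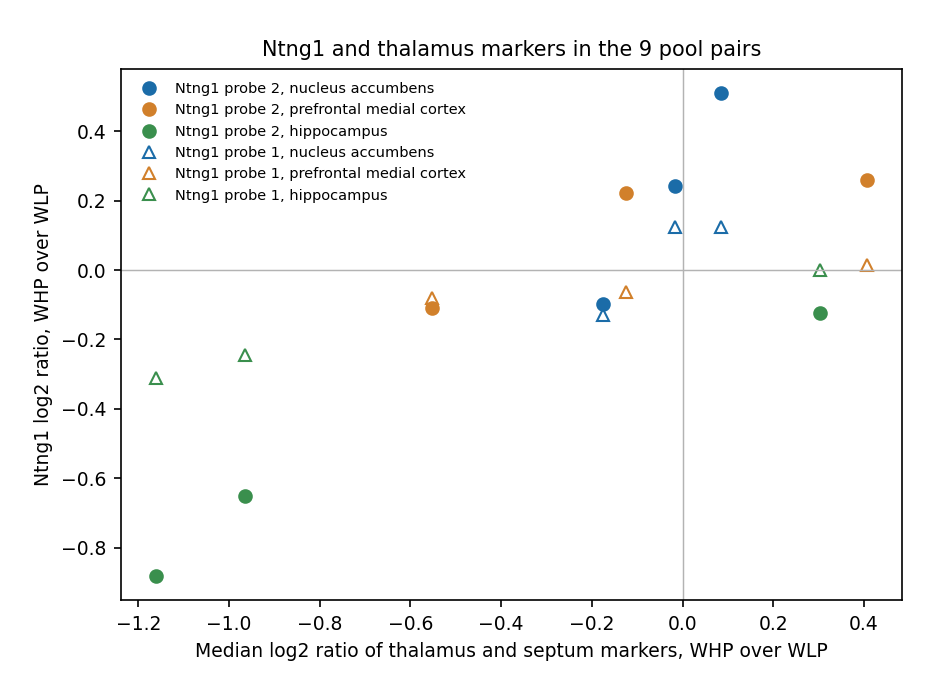
Log2 ratio of WHP over WLP for Ntng1 probe 2 (filled circles) and probe 1 (open triangles) against the median log2 ratio of the 5 thalamus and septum markers, with 1 point per pool pair and probe, coloured by brain area. The points with markers at -1.16 and -0.96 are hippocampal and have Ntng1 probe 2 at -0.88 and -0.65.

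Among the receptors that mediate attraction, Dcc was dim. Its probe was well above background on 5 of 6 channels of each strain in the accumbens and hippocampus, and on 2 WHP and 0 WLP channels in the prefrontal medial cortex. Its ratios lay between -0.15 and 0.20. Neo1, which encodes neogenin, a receptor for netrins and for repulsive guidance molecules, was read by 3 probes. Probe 1 was -0.22, -0.04 and -0.33 in the accumbens, with WHP pools at 0.97 to 1.24 and WLP pools at 1.28 to 1.42, and it averaged -0.10 ± 0.12 in the prefrontal medial cortex and 0.01 ± 0.04 in the hippocampus (SD, n = 3 each). Probes 2 and 3 averaged 0.04 ± 0.13 and 0.03 ± 0.29 in the accumbens. Beside these values, striatum markers had median ratios of -0.39, -0.85 and -0.10 in the accumbens pairs (10 of 10 genes negative on average). Meninges and fibroblast markers had 1.44, 3.09 and -1.18 (8 of 8 positive on average). Astrocyte markers had -0.11, -0.08 and -0.17 (1 of 6 positive) and oligodendrocyte markers -0.54, 0.30 and -0.30 (1 of 8 positive). In each of these lists 0 genes passed the test. The part of these lists in the accumbens strain ratios of Neo1 and of the other members was not tested. Over the 9 pairs probe 1 correlated with probes 2 and 3 at r = -0.16 and -0.18, and probes 2 and 3, which lie 1116 bases apart, at r = 0.62.

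The remaining UNC5 receptors had small ratios. Unc5b, known from blood vessels as well as neurons, was -0.16, -0.10 and -0.14 in the accumbens and 0.21, 0.12 and 0.02 in the hippocampus, so its sign was the same within each of these areas and opposite between them. Its strains overlapped in both areas, and the difference between the areas, -0.25 with a 95% confidence interval of -0.42 to -0.07, was not called over all probes. Unc5a, a mostly neuronal receptor of the family, ranged from -0.16 to 0.24 over the 9 pairs with 5 of 9 negative. Unc5c, a receptor whose loss in mice misplaces cerebellar neurons, ranged from -0.18 to 0.37 with 4 of 9 negative.

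Levels of the member probes were compared between brain areas in 3 contrasts. The counts in the contrasts with the hippocampus lay near the shares of all probes. Between accumbens and prefrontal medial cortex 8 of 11 member probes were called by limma (49.8% of all probes). In the accumbens 7 of them were higher and 1 was lower (25.8% and 24.0% of all probes). Between accumbens and hippocampus 9 of 11 were called (73.4%), of which 4 were higher and 5 lower in the accumbens (35.3% and 38.2%). Between prefrontal medial cortex and hippocampus 8 of 11 were called (70.3%), of which 1 was higher and 7 were lower in the prefrontal medial cortex (32.7% and 37.5%). Dcc entered the contrasts with the prefrontal medial cortex through the other area alone, and without it 7 of 10 were called between accumbens and prefrontal medial cortex, 6 higher and 1 lower. Without accumbens pair 3 and hippocampus pair 2 the counts were 8, 7 and 7. With median in place of quantile scaling 4 members were called for accumbens minus prefrontal medial cortex and 4 for accumbens minus hippocampus. The median difference of the tested members was 0.23 for accumbens minus prefrontal medial cortex, against 0.01 over all probes. It was -0.02 for accumbens minus hippocampus and -0.20 for prefrontal medial cortex minus hippocampus, where all probes had -0.02 and -0.03.

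**Figure D4:**
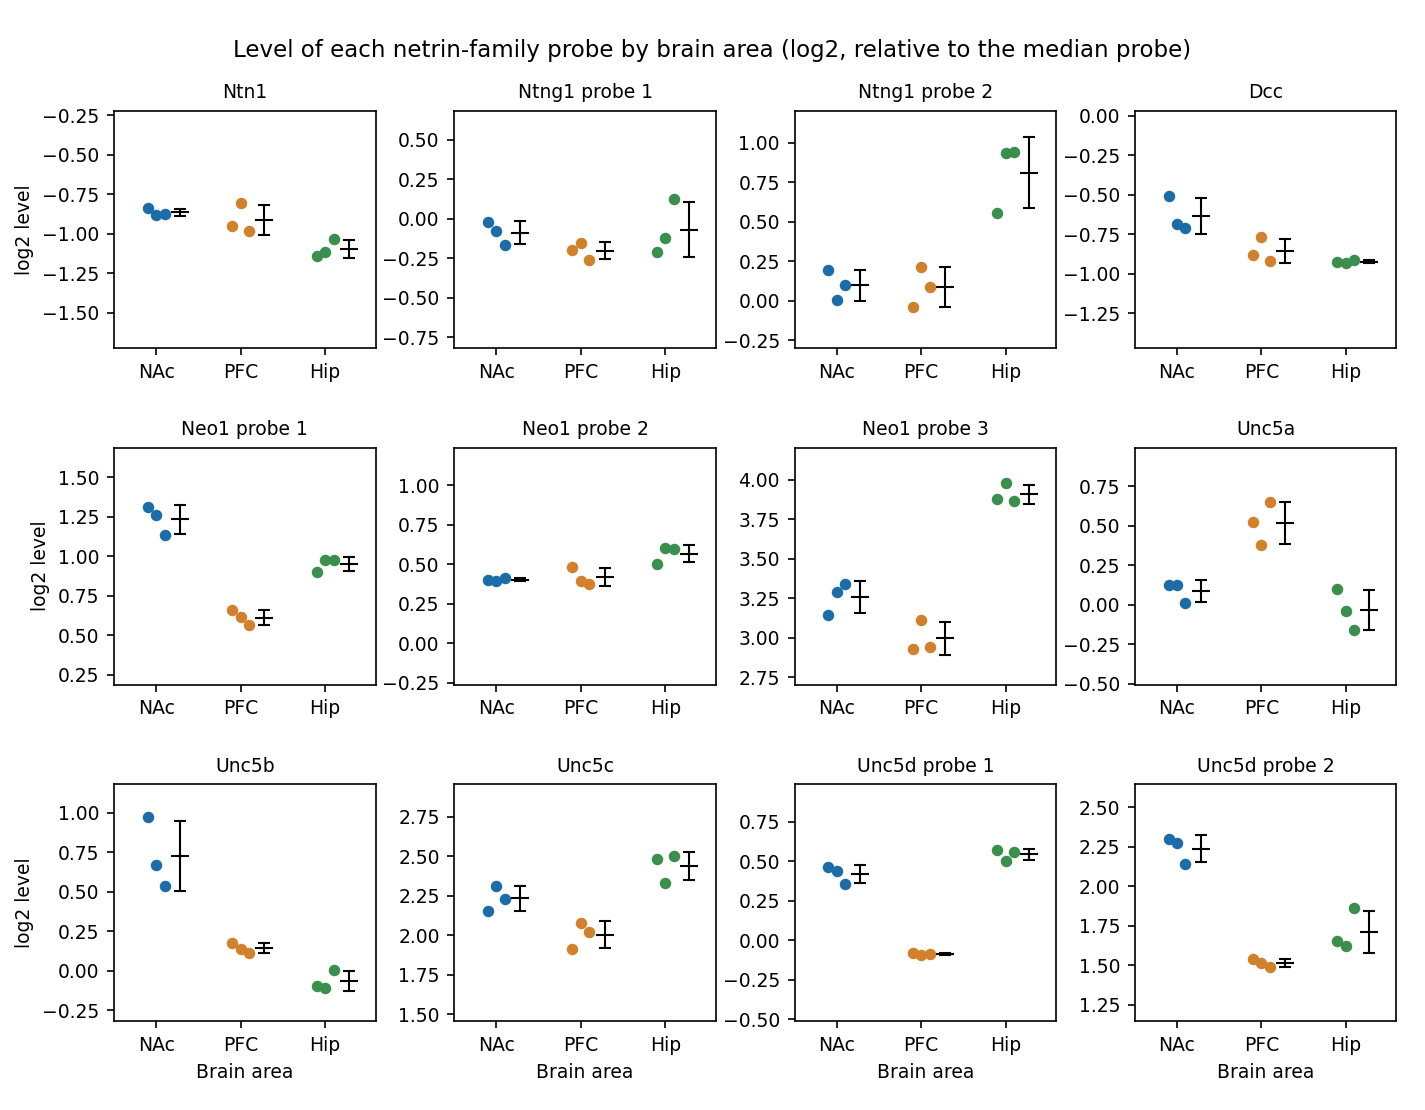
Log2 level relative to the median probe (vertical axes, all spanning the same range) of each of the 12 probes in nucleus accumbens (NAc), prefrontal medial cortex (PFC) and hippocampus (Hip), with 1 point per pool pair, and the mean and SD (n = 3) as a bar beside the points. Unc5b is highest in the accumbens, Unc5a in the prefrontal medial cortex, and Neo1 probe 3 and Ntng1 probe 2 in the hippocampus.

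Unc5b was highest in the accumbens, with levels of 0.97, 0.67 and 0.54 in its pool pairs, over 0.18, 0.14 and 0.11 in the prefrontal medial cortex and -0.10, -0.11 and 0.01 in the hippocampus. Its probe lies at chr20:28095330-28095389 on the minus strand. The accumbens pairs did not overlap those of the other areas. It was higher in the accumbens than in the prefrontal medial cortex by 0.58 ± 0.09 (log2, moderated SE, limma adjusted p = 0.000687) and 1.73-fold higher than in the hippocampus (0.79 ± 0.09, limma adjusted p = 3.31e-05). With processed signals these differences were 0.93 and 1.20. Prefrontal medial cortex and hippocampus did not differ past the threshold (0.21, 95% confidence interval -0.00 to 0.42, limma adjusted p = 0.0697), and that contrast passed in 3 of 18 alternatives, among them those without accumbens pair 1 or pair 3, where the difference was the same 0.21. The mean level of endothelium markers (6 of 6 measured) ran in the same order. It was 1.15 to 1.24 in the accumbens, 0.96 to 1.08 in the prefrontal medial cortex and 0.78 to 0.85 in the hippocampus. Of 6 tested, 2 were called higher and 0 lower in the accumbens than in the prefrontal medial cortex. Against the hippocampus 5 were higher and 1 lower in the accumbens, and 3 of 5 higher and 1 lower in the prefrontal medial cortex. Oligodendrocyte markers were also highest in the accumbens, at 5.13 ± 0.18 (SD, n = 3 per area). They stood at 4.05 ± 0.11 in the prefrontal medial cortex and 4.28 ± 0.07 in the hippocampus. The part of either list in the Unc5b level was not tested.

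Unc5a, at chr17:15671251-15671394 on the minus strand, was highest in the prefrontal medial cortex. Its levels were 0.13, 0.12 and 0.01 in the accumbens, 0.53, 0.38 and 0.65 in the prefrontal medial cortex and 0.10, -0.04 and -0.16 in the hippocampus. The prefrontal pairs stood above all others, 1.35-fold over the accumbens (accumbens minus prefrontal medial cortex -0.43 ± 0.08, limma adjusted p = 0.00181) and 1.46-fold over the hippocampus (0.55 ± 0.08, limma adjusted p = 0.000188). Accumbens and hippocampus, its neighbours in this order, differed by 0.12 (95% confidence interval -0.06 to 0.30) without passing. With processed signals the first contrast was -0.70. With median scaling in place of quantile scaling it was -0.39 and did not pass (limma adjusted p = 0.0965).

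Unc5c, at chr2:239720952-239721011 on the plus strand, was lowest in the prefrontal medial cortex and highest in the hippocampus. Its levels were 2.16, 2.31 and 2.23 in the accumbens, 1.91, 2.08 and 2.02 in the prefrontal medial cortex and 2.48, 2.33 and 2.50 in the hippocampus. The prefrontal medial cortex lay 1.35-fold below the hippocampus (-0.43 ± 0.06, limma adjusted p = 0.000201), a difference of -0.80 with median scaling. The accumbens lay between them, 0.23 ± 0.06 above the prefrontal medial cortex (limma adjusted p = 0.015) and 0.20 below the hippocampus (-0.20 ± 0.06, limma adjusted p = 0.0163). The first of these smaller steps was lost in 4 of 19 alternatives, among them those without accumbens pair 2 (0.19) or prefrontal pair 1 (0.18). The other was lost in 6 of 18, among them median scaling (-0.51), the WHP channel alone (-0.13) and those without accumbens pair 1 (-0.17), hippocampus pair 1 (-0.18) or hippocampus pair 3 (-0.17). A probe that shares 44 of the Unc5c bases on the opposite strand was detected in all 3 areas, and its level correlated with that of the Unc5c probe at r = 0.07 over the 9 pairs.

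Both Unc5d probes were lowest in the prefrontal medial cortex and differed on which area was highest. Probe 1 had levels of 0.46, 0.44 and 0.35 in the accumbens, -0.08, -0.09 and -0.09 in the prefrontal medial cortex and 0.57, 0.50 and 0.56 in the hippocampus. The prefrontal medial cortex lay 1.42-fold below the accumbens (accumbens minus prefrontal medial cortex 0.51 ± 0.04, limma adjusted p = 1.93e-05) and 1.55-fold below the hippocampus (prefrontal medial cortex minus hippocampus -0.63 ± 0.04, limma adjusted p = 1.34e-06). With processed signals these differences were 0.84 and -1.05. Accumbens and hippocampus were close, at -0.12 ± 0.04 (limma adjusted p = 0.0248), and this call was lost in 6 of 18 alternatives, among them the WLP channel alone (-0.08) and those without accumbens pair 3 (-0.09), hippocampus pair 1 (-0.11) or hippocampus pair 3 (-0.12).

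Probe 2 of Unc5d had levels of 2.30, 2.27 and 2.14 in the accumbens, 1.54, 1.51 and 1.49 in the prefrontal medial cortex and 1.65, 1.62 and 1.86 in the hippocampus. The accumbens was highest, 1.65-fold over the prefrontal medial cortex (0.72 ± 0.07, limma adjusted p = 3.66e-05) and 1.44-fold over the hippocampus (0.53 ± 0.07, limma adjusted p = 6.94e-05). The accumbens and the prefrontal medial cortex shared slides and scan session, and both Unc5d probes kept their call between these areas in all 19 alternatives. Read in WHP pools alone, the order of probe 2 was the same, at 1.70 in the accumbens, 1.04 in the prefrontal medial cortex and 1.21 in the hippocampus, as it was in WLP pools at 2.77, 1.99 and 2.21. The accumbens call over the hippocampus was lost with median scaling (0.30, limma adjusted p = 0.135), and that of the prefrontal medial cortex below the hippocampus (-0.20 ± 0.07, limma adjusted p = 0.0265, and -0.45 with median scaling) in 5 of 18 alternatives, among them those without prefrontal pair 2 (-0.20), prefrontal pair 3 (-0.19) or hippocampus pair 3 (-0.12).

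Neo1 differed by probe as well. Probe 3, the one nearest the 3′ end at chr8:62681749-62681808 on the minus strand, had levels of 3.15, 3.29 and 3.34 in the accumbens, 2.93, 3.11 and 2.94 in the prefrontal medial cortex and 3.88, 3.98 and 3.87 in the hippocampus. The hippocampus stood 1.57-fold over the accumbens (accumbens minus hippocampus -0.65 ± 0.07, limma adjusted p = 1.42e-05) and 1.88-fold over the prefrontal medial cortex (prefrontal medial cortex minus hippocampus -0.91 ± 0.07, limma adjusted p = 2.14e-06), and with median scaling these differences were -1.10 and -1.45. Probe 1, at chr8:62694528-62694587, was instead highest in the accumbens, with 1.31, 1.26 and 1.13 there, over 0.66, 0.61 and 0.56 in the prefrontal medial cortex and 0.90, 0.98 and 0.97 in the hippocampus. That is 1.54-fold over the prefrontal medial cortex (0.62 ± 0.05, limma adjusted p = 2.23e-05) and 1.22-fold over the hippocampus (0.28 ± 0.05, limma adjusted p = 0.00093), where the call against the hippocampus was lost with median scaling (0.17) and in the WHP channel alone (0.18). Probe 2, at chr8:62682865-62682924, was flat by comparison, 0.40 ± 0.01 in the accumbens, 0.42 ± 0.06 in the prefrontal medial cortex and 0.57 ± 0.06 in the hippocampus (SD, n = 3 each). Over the 9 pairs the levels of probes 2 and 3 correlated at r = 0.82 and those of probes 1 and 2 at r = 0.01. Of the 3 contrasts, prefrontal medial cortex below hippocampus was the one called in the same direction at all 3 probes. For probe 2 this call (-0.15 ± 0.05) was lost in 7 of 18 alternatives, among them the WHP channel alone (-0.09) and those without prefrontal pair 3, hippocampus pair 2 or hippocampus pair 3 (-0.13 each).

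Ntng1 probe 2 was highest in the hippocampus, at 0.20, 0.00 and 0.10 in the accumbens, -0.04, 0.21 and 0.09 in the prefrontal medial cortex and 0.55, 0.94 and 0.94 in the hippocampus. The hippocampus was 1.64-fold over the accumbens (accumbens minus hippocampus -0.71 ± 0.11, limma adjusted p = 0.000186) and 1.65-fold over the prefrontal medial cortex (prefrontal medial cortex minus hippocampus -0.72 ± 0.11, limma adjusted p = 0.000196). These differences were -0.33 and -0.39 in the WHP channel alone, and accumbens minus hippocampus was -1.10 in the WLP channel alone and -1.09 with processed signals. Probe 1 passed in 0 of these contrasts, with -0.02 for accumbens minus hippocampus (95% confidence interval -0.20 to 0.16) and -0.13 for prefrontal medial cortex minus hippocampus (-0.31 to 0.05). Over the area means the thalamus and septum markers did not follow the probe 2 order. They stood at 2.69 ± 0.05 in the accumbens, 1.84 ± 0.09 in the prefrontal medial cortex and 1.77 ± 0.41 in the hippocampus (log2 level, SD, n = 3 each). Within the hippocampus the mean marker level was 1.13, 2.61 and 2.43 in the WLP pools of pairs 1, 2 and 3. Ntng1 probe 2 stood at 0.62, 1.38 and 1.27 in the same pools. The part of these markers in the Ntng1 level was not tested. The Dcc probe, at chr18:68026798-68026859 on the minus strand, was highest in the accumbens, at -0.51, -0.68 and -0.71, over -0.88, -0.77 and -0.92 in the prefrontal medial cortex and -0.93, -0.93 and -0.91 in the hippocampus. Dcc was not detected in the prefrontal medial cortex, so its values there are near background and no fold against them is given. It was 1.22-fold over the hippocampus (0.29 ± 0.06, limma adjusted p = 0.0017), a difference that was 1.24 with the scanner's own processed signals and 0.45 with median scaling.

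Likeness of pattern was measured among 14703 named genes by the correlation r of log2 level over the 18 pools, as a description, since pools of 1 array share its errors. The pools include both strains, so r for Unc5d probe 2 also reflects the strain ratio by which the family was chosen. The genes most like Unc5d probe 2 were Mrpl52, a mitochondrial ribosomal protein gene (r = 0.93), Usp30, a mitochondrial deubiquitinase gene (0.91), and Ampd1, an adenosine monophosphate deaminase gene (0.88). Those most like Unc5d probe 1 were Hsd17b11 of steroid metabolism (0.97), Ap4e1 of vesicle sorting (0.95) and Slain1, a microtubule-binding protein gene (0.95). Neo1 probe 3 ran closest to Nup160 of the nuclear pore (0.99) and Gnpda2 (0.98), and Unc5b to Paqr6 and Frmd4b (0.97 each). Unc5a ran closest to Mcrs1 (0.95) and the lactate dehydrogenase gene Ldha (0.95), Unc5c to Birc6 (0.89) and Plagl1 (0.88), Dcc to Plekha1 (0.93) and Stk32a (0.93), and Ntng1 probe 2 to Mgarp (0.91) and Kdf1 (0.90).

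Of 42 other genes of the pathway, namely further netrins, further receptors, partners and signalling proteins, 35 were detected and tested. In the strain contrasts 0 passed in the accumbens and 0 in the prefrontal medial cortex, and 1 passed in the hippocampus (0.252%, 0.0905% and 0.250% of all probes). Over the mean of the areas 2 of 35 passed (5.71%, against 2.85% of all probes). At an unadjusted limma p under 0.05 the counts were 10, 8 and 4 of 35 in the accumbens, prefrontal medial cortex and hippocampus (28.6%, 22.9% and 11.4%, against 16.3%, 8.45% and 6.68% of all probes). The pathway shares count the brightest detected probe of each gene, whereas all probes include dimmer and unnamed ones. These shares are thus not of like sets, and no excess is read from them. The gene that passed in the hippocampus was Appl1, an endosomal adaptor that binds DCC, whose brightest probe was lower in WHP in the hippocampus (-0.85 ± 0.11, moderated SE, limma adjusted p = 0.0248) and in the mean of the areas (-0.65 ± 0.06, limma adjusted p = 0.00172). Its other 2 probes stood at -0.02 and -0.04 in the hippocampus, so the difference there was seen at 1 of its 3 probes. Dapk1, a kinase that acts in the death signal of UNC5 receptors, was lower in the mean of the areas (-0.35 ± 0.06, limma adjusted p = 0.0257). Its ratios were -0.16, -0.32 and -0.71 in the accumbens, -0.26, -0.37 and -0.55 in the prefrontal medial cortex and -0.04, -0.34 and -0.37 in the hippocampus. Dapk1 was read by a single probe and did not pass in any area alone (limma adjusted p = 0.173, 0.339 and 0.733 in the same order).

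Levels of the 35 pathway genes were compared between areas in the same way, again with the brightest detected probe of each gene beside all detected probes. In the accumbens 6 were higher and 13 lower than in the prefrontal medial cortex (17.1% and 37.1%, against 25.8% and 24.0% of all probes). Accumbens against hippocampus gave 14 higher and 15 lower (40% and 42.9%, against 35.3% and 38.2%). Prefrontal medial cortex against hippocampus gave 17 higher and 10 lower (48.6% and 28.6%, against 32.7% and 37.5%). Lower in the accumbens than in the prefrontal medial cortex were the ubiquitin ligase gene Trim9, which acts below DCC (-1.44 ± 0.12, limma adjusted p = 1.48e-05), the focal adhesion kinase gene Ptk2 (-0.72 ± 0.04, limma adjusted p = 5.1e-06) and Lrrc4, which encodes a ligand of netrin-G2 (-0.66 ± 0.06, limma adjusted p = 1.92e-05). Mcam, a cell adhesion gene of blood vessels whose protein also binds netrin-1, was higher in the accumbens than in the prefrontal medial cortex (0.99 ± 0.09, limma adjusted p = 2.82e-05) and lower in the prefrontal medial cortex than in the hippocampus (-1.20 ± 0.09, limma adjusted p = 2.23e-06). The Mcam level was 3.88 in the accumbens, 2.89 in the prefrontal medial cortex and 4.09 in the hippocampus. Against the hippocampus, the accumbens was higher in the actin regulator Enah (1.25 ± 0.07, limma adjusted p = 3.84e-07) and lower in Tiam1, an activator of RAC1 (-1.37 ± 0.09, limma adjusted p = 9.46e-07), in Lrrc4 (-0.82 ± 0.06, limma adjusted p = 8.85e-07) and in Ptk2 (-0.79 ± 0.04, limma adjusted p = 3.21e-07). The prefrontal medial cortex was higher than the hippocampus in the neuronal tubulin gene Tubb3 (1.54 ± 0.08, limma adjusted p = 4.51e-07), Maged1, whose protein binds UNC5 receptors (1.11 ± 0.08, limma adjusted p = 2.33e-06), and the netrin receptor gene Dscam (0.66 ± 0.04, limma adjusted p = 9.07e-07).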

How the data were processed

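Scanner files of 18 arrays were used. They hold spot intensities (foreground means, local background medians) and processed signal intensities, which the authors deposited as written by Agilent Feature Extraction 10.10.1.1, per the file headers. A further table from the authors, also deposited, holds log2 ratios whose normalization is not given in the sources used here, and set against the scanner's ratios its sign is WHP over WLP on all 18 arrays.

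With limma 3.58.1 in R 4.3.3, signals were corrected by normexp (offset 50) and loess-normalized within arrays with control spots at weight 0. The dyes in the labels gave each ratio its direction, WHP over WLP, and the 2 arrays of a pool pair were averaged. Levels are the mean of both channels after Aquantile scaling. A probe was detected in an area if it was well above background on at least 4 of the 6 arrays in the channel of at least 1 strain. lmFit and eBayes used all 9 pool pairs with 1 coefficient per area (6 residual degrees of freedom, 2.46 prior for ratios and 3.64 for levels), two-sided, with Benjamini-Hochberg adjustment over all detected probes and a threshold of 0.05. On simulated data 92% of changes of 1 log2 unit were recovered for the accumbens strain contrast (30216 probes) and 98% for the level contrast of accumbens and prefrontal medial cortex. In these runs 9 and 15 unchanged probes were called. The simulated noise was independent between probes and pool pairs, without error shared within an array. The recovered shares therefore need not hold for the real arrays.

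The labels call the pairs of an area biological replicates. Same-numbered pairs of accumbens and prefrontal medial cortex share a slide, but their deviations correlate at 0.17, 0.06 and -0.16, so the numbers were not taken as pairing. Members, gene lists and tests were chosen with earlier results of these data known. Every member probe is named. Other pathway genes are named if past a test, at most 4 per contrast by smallest adjusted p, with the brightest detected probe. Genes named for likeness have the highest r of level, 3 per Unc5d probe and 2 for the brightest probe of each other gene. Alternatives changed the background correction, scaling, filter, dye orientation, areas fitted, blocks and pool pairs used. Coordinates are those of the files, on rn4.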

Additional observations from a re-analysis of the deposited data

How the results depend on the processing

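The Unc5d probe 2 strain ratio stayed negative under every alternative run, from -1.18 to -1.02 in the accumbens, -1.31 to -0.72 in the prefrontal medial cortex and -1.16 to -0.84 in the hippocampus, and -1.21 to -0.89 in the mean of the areas. As the family was chosen by this ratio, its passing of the test carries no weight. The accumbens count of 1 called member was 0 with WHP in green (Cy3) alone, with the area fitted alone, with the first scan session and slide as a block, and without the pool pairs whose dye-swapped arrays were uncorrelated. Leaving out 1 pool pair gave 0 to 1, with 0 without accumbens pair 2 or 3 or any hippocampus pair. The prefrontal count of 0 was 1 without background subtraction, with processed signals, with the deposited table and with WHP in red (Cy5) alone. The hippocampus count of 1 was 0 with processed signals, the deposited table, WHP in green alone, the area alone and without the uncorrelated pairs, and 0 to 1 leaving out 1 pair, with 0 without any accumbens or hippocampus pair. With the replicate number as a block both counts were 0, and the accumbens ratio of Unc5d probe 2 was -1.07. Median in place of quantile scaling left 4 called members for accumbens minus prefrontal medial cortex and 4 for accumbens minus hippocampus (1880 and 14404 of all probes, against 15165 and 25789). Among 2089 values of single members under the alternatives, 64 called ones fell short of the test and 8 newly passed. The sign turned in 152, all of them of contrasts that had not been called. The cause of these changes was not tested. Signal over background limits Ntn1 and Dcc.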
